A study of Mus musculus with 6 samples.

Results

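Collagen crosslinking and hydroxylation enzymes were followed in infarcted mouse hearts with and without the transcription factor Irf3. The set holds 10 genes of the 12969 in the deposited table, chosen by name: the lysyl oxidases Lox, Loxl1, Loxl2 and Loxl3, the lysyl hydroxylases Plod1, Plod2 and Plod3, and the prolyl 4-hydroxylase alpha subunits P4ha1, P4ha2 and P4ha3. All 10 were found and all 10 passed the filter of a mean of at least 1 RPKM (reads per kb of gene, scaled to the size of the library), as did 12913 genes in all. RNA was taken 4 days after permanent suture ligation of the left anterior coronary artery from infarct tissue of male mice about 12 weeks old. Of the 6 libraries, 3 came from mice of genotype IRF3-/-, here called knockout (strain not given in the sources used here), and 3 came from wild-type mice labelled C57BL/6. Mice of both groups had the ligation, so no uninjured heart enters the comparison. The labels give no cell type restriction for the Irf3 deletion. They do not say whether each library came from a separate animal, so the p-values cover the spread between libraries, which may be technical.

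Collagen is modified in steps, and each step has its own enzymes. Inside the endoplasmic reticulum, prolyl 4-hydroxylases convert proline to 4-hydroxyproline, which makes the triple helix stable at body temperature, and lysyl hydroxylases convert lysine to hydroxylysine, which takes part in crosslinks and carries sugars. Both are dioxygenases that need iron, 2-oxoglutarate, oxygen and ascorbate. After secretion, the copper-dependent lysyl oxidases turn lysine and hydroxylysine side chains into reactive aldehydes, from which the covalent crosslinks of collagen and elastin form. In a healing infarct these enzymes are made mainly by fibroblasts and myofibroblasts, and the scar they help to build has to resist wall stress.

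The libraries held 14800000 to 61900000 reads in genes, as estimated from the steps between low RPKM values, and every value of the 10 enzyme genes rested on at least 346 reads. Irf3 had values of 7.4, 8.74 and 7.68 RPKM in the knockout against 13.76, 13.87 and 11.56 RPKM in the wild type, lower in each knockout library but not absent (log2 fold change -0.65 ± 0.18, SE; adjusted p = 0.344 in limma). After the GC adjustment described next it passed the test, at -0.76 ± 0.12 (adjusted p = 0.0433). The labels do not say which part of the gene was deleted, so reads outside it would check nothing. Knockout replicate 2 stood apart from the other libraries by GC content. With genes split into 5 equal classes by transcript GC, log2 values minus the wild-type mean had a median of -0.79 in the lowest class and 0.37 in the highest class in that library. In the other 5 libraries the medians of these classes stayed between -0.18 and 0.10. The enzymes are therefore given with and without that library and after a per-library adjustment for GC, which was chosen after seeing the data. Cardiomyocyte markers also varied between libraries: the summed level of the 14 tested ranged from 15833 to 23611 RPKM in the knockout and from 7329.6 RPKM in wild-type replicate 1 to 20251 RPKM in wild-type replicate 3. None of the 14 was at 0 in every library.

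The windows before the start sites of the 3 prolyl 4-hydroxylase alpha subunit genes are shown because these subunits form interchangeable versions of one enzyme and their transcripts stood at different levels and differences. Each is the 250 bases before a RefSeq start site, 5′ to 3′ on the strand of the gene (GRCm38.p6, all on the + strand), from a table that held 5 of the 10 genes. Capitals mark ACGTG or its reverse complement CACGT, 1 form of the core recognised by hypoxia-inducible factors and part of the E-box CACGTG. The form GCGTG was neither marked nor counted.
P4ha1, chr10:59323046-59323295: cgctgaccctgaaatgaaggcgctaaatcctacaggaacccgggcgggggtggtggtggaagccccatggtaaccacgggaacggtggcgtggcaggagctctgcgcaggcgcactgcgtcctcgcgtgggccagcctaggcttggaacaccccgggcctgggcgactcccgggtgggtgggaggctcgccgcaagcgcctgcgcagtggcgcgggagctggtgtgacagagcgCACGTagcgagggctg
P4ha2, chr11:54100674-54100923: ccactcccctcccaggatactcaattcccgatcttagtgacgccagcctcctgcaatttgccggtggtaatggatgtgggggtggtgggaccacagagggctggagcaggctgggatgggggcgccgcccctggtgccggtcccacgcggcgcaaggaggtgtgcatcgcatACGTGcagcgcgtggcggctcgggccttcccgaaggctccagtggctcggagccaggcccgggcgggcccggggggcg
P4ha3, chr7:100285270-100285519: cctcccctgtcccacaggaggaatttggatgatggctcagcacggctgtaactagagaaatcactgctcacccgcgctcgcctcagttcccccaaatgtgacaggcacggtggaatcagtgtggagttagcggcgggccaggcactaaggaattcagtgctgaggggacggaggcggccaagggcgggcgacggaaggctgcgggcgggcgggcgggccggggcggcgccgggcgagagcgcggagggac
The P4ha1 window held 1 match, starting 16 bases before the start site, and the P4ha2 window held 1, starting 78 bases before it. No match lay in the P4ha3 window. Neither match was part of CACGTG. Of the 5 enzyme genes with a window, 3 held a match. Among all 32851 windows of the same length in the table, 16.6% held ACGTG or its reverse complement, so a match is a description of these letters and no more. The GC contents of the windows were 69.6% for P4ha1, 70.0% for P4ha2 and 67.2% for P4ha3, and those of the transcripts were 45.7%, 54.2% and 54.5%.

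Transcripts of all 10 enzymes had a lower mean in the knockout, and none passed the test across genes. The log2 fold changes, taken on log2(RPKM + 1), ran from -1.04 for Plod2 to -0.13 for Plod1 with a median of -0.45, where the median of all 12913 genes was -0.09 and 59.3% of genes had a value below 0. With limma and Benjamini-Hochberg adjustment at 0.05 over all genes, 0 of the 10 were called, where 0.503% of genes were called (65 genes; 0.356% of genes, or 46, were lower). At an unadjusted p under 0.05 there were 4 of the 10, Lox, Plod2, P4ha1 and P4ha3, all lower, where 5.96% of genes were lower at that level and 8.4% differed in either direction. In the same 4 genes every knockout library lay below every wild-type library, a pattern that 11.8% of genes showed. No enzyme had all knockout libraries above the wild type, where 6.61% of genes did. Without knockout replicate 2 the median of the 10 was -0.38 against 0.01 over all genes, all 10 values stayed below 0, where 48.1% of genes did, and 0 were called, where 0.75% of genes were (0.541% lower). At an unadjusted p under 0.05 there were then 3, Lox, Plod2 and P4ha3, all lower, where 7.88% of genes passed in either direction and 5.4% were lower.

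**Figure D1:**
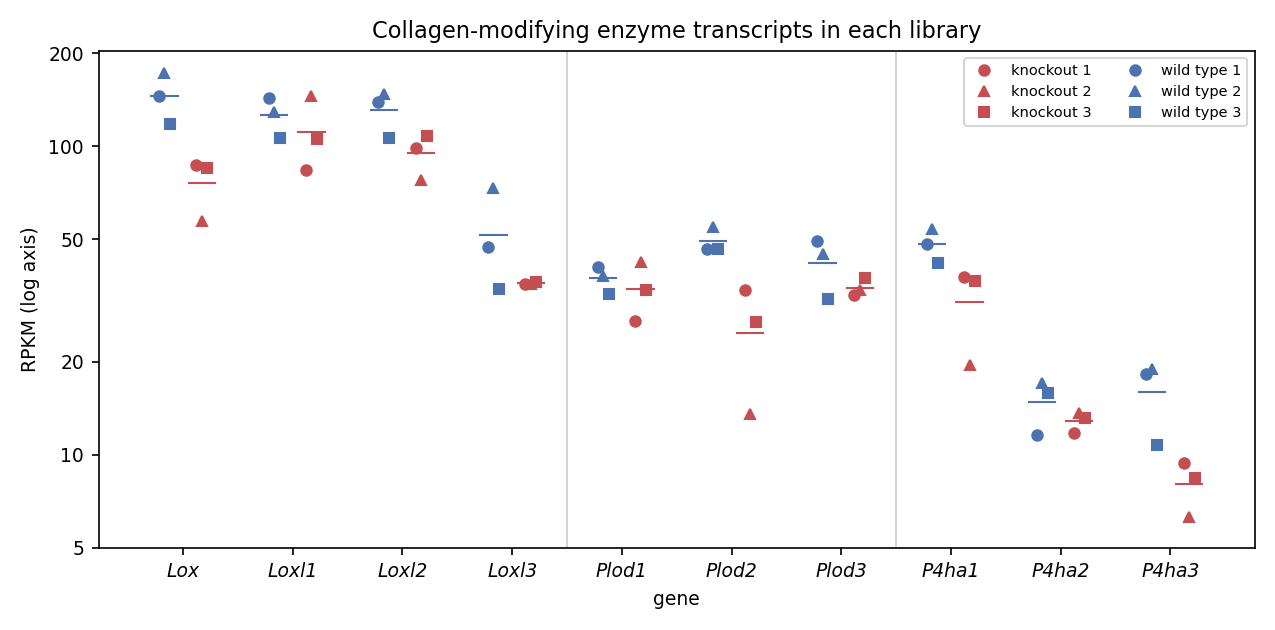
RPKM on a log axis of the 10 enzyme genes in 3 wild-type (blue) and 3 knockout (red) libraries, with the replicate number shown by the marker and the group mean by a line. The red and blue points do not overlap for Lox, Plod2, P4ha1 and P4ha3, and knockout replicate 2 (red triangle) is the highest library for Loxl1 and Plod1 and the lowest for Lox, Loxl2, Plod2, P4ha1 and P4ha3.

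Among the lysyl oxidases Lox, the founding member that crosslinks fibrillar collagen and elastin, showed the clearest separation. It stood at 86.72, 57.32 and 84.8 RPKM in knockout replicates 1 to 3 and at 145.53, 172.72 and 118.46 RPKM in wild-type replicates 1 to 3. The groups did not overlap, with knockout replicate 2 lowest and wild-type replicate 3 the lowest of its group. The knockout mean was 47.6% lower, 76.3 ± 16.4 against 145.6 ± 27.1 RPKM (SD, n = 3 per group), a log2 fold change of -0.93 ± 0.25 (SE; 95% interval -1.51 to -0.35; adjusted p = 0.339 in limma). The value was -0.74 ± 0.22 without knockout replicate 2 and -0.63 ± 0.19 after GC adjustment (adjusted p = 0.365 and 0.312).

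Loxl1, the oxidase that guides elastic fibre deposition together with fibulin-5, overlapped between genotypes. Its values were 83.75, 145.51 and 105.41 RPKM in the knockout and 143.03, 129.36 and 106.02 RPKM in the wild type. Knockout replicate 2 was the highest of all 6 libraries, and the other 2 knockout libraries were the lowest. The log2 fold change was -0.20 ± 0.26 (95% interval -0.81 to 0.40; adjusted p = 0.715 in limma), and without knockout replicate 2 it was -0.41 ± 0.21 (adjusted p = 0.737). Without knockout replicate 1 it was -0.02. After GC adjustment the knockout libraries stood at 96.6, 102.1 and 105.8 and the wild-type libraries at 140.8, 144.2 and 117.3 on the RPKM scale, so that the groups no longer overlapped (log2 fold change -0.39 ± 0.17, adjusted p = 0.423 in limma). Loxl1 transcripts have a GC content of 61.0%, higher than 97.3% of genes, and those of Lox one of 43.9%, higher than 17.8%.

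Loxl2 and Loxl3 carry scavenger receptor domains next to the oxidase domain, and Loxl2 acts on the collagen IV of basement membranes. Loxl2 stood at 98.77, 77.48 and 108.23 RPKM in the knockout against 139.43, 148.14 and 105.97 RPKM in the wild type. The groups overlapped by knockout replicate 3 and wild-type replicate 3 alone. Its log2 fold change was -0.46 ± 0.24 (95% interval -1.01 to 0.08; adjusted p = 0.556 in limma). Loxl3 was nearly constant over the knockout libraries, 35.88, 35.8 and 36.43 RPKM, and spread widely over the wild type, 47.02, 73.06 and 34.48 RPKM. Wild-type replicate 3 was below every knockout library, and the log2 fold change was -0.44 ± 0.27 (95% interval -1.07 to 0.19; adjusted p = 0.556 in limma). It was -0.16 without wild-type replicate 2 and -0.69 without wild-type replicate 3. Of the exonic bases of Loxl3, 13.1% overlap exons of Htra2 on the other strand, and since counting by strand is not stated these reads cannot be told apart. Loxl4, the remaining family gene and not one of the 10, was barely read, at 1.99 to 3.26 RPKM in the knockout and 2.08 to 3.75 RPKM in the wild type (log2 fold change -0.08 ± 0.23, adjusted p = 0.871 in limma).

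Plod2, the lysyl hydroxylase of the telopeptides, whose product steers crosslinks toward the stable pyridinoline type found in scars, had groups that did not overlap. It stood at 34.14, 13.56 and 27.04 RPKM in the knockout against 46.3, 54.83 and 46.51 RPKM in the wild type. The wild-type libraries lay close together and above every knockout library, while knockout replicate 2 was far below the other 2 knockout libraries. The mean was 49.4% lower in the knockout, 24.9 ± 10.5 against 49.2 ± 4.87 RPKM (SD, n = 3 per group), with a log2 fold change of -1.04 ± 0.32 (SE; 95% interval -1.77 to -0.31; adjusted p = 0.436 in limma). Without knockout replicate 2 it was -0.67 ± 0.17 (adjusted p = 0.287). After GC adjustment it was -0.71 ± 0.16 (adjusted p = 0.154), with knockout values of 29.8, 22.2 and 27.5 and wild-type values of 41.8, 47.5 and 42.0. Plod2 transcripts have a GC content of 43.0%, the lowest of the 10. An unnamed transcript on the other strand, Gm38391, overlaps 9.32% of its exonic bases.

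Plod1 and Plod3, which hydroxylate lysines of the triple helix and, for Plod3, also add sugars to hydroxylysine, did not separate. Plod1 stood at 27.14, 42.27 and 34.2 RPKM in the knockout against 40.75, 38.09 and 33.14 RPKM in the wild type. As for Loxl1, knockout replicate 2 was the highest of all libraries and knockout replicate 1 the lowest. The log2 fold change of Plod1 was -0.13 ± 0.22 (95% interval -0.62 to 0.37; adjusted p = 0.78 in limma), and it turned to 0.03 without knockout replicate 1. Plod3 stood at 33.07, 34.12 and 37.33 RPKM against 49.31, 44.68 and 32 RPKM, the wild-type replicate 3 again below every knockout library. Its log2 fold change was -0.24 ± 0.21 (95% interval -0.73 to 0.25; adjusted p = 0.608 in limma), and it was -0.12 without wild-type replicate 1 and -0.42 without wild-type replicate 3. Exons of Znhit1 and Mir702 cover 16.4% of the exonic bases of Plod3. The intervals of Plod1 and Plod3 reach to -0.62 and -0.73, so a decrease of the size estimated for Loxl2 lies within both.

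P4ha1 encodes the most widely expressed catalytic subunit of collagen prolyl 4-hydroxylase, P4ha2 and P4ha3 those of the other enzyme forms. P4ha1 stood at 37.76, 19.55 and 36.71 RPKM in the knockout against 48.28, 54.12 and 41.91 RPKM in the wild type. The groups did not overlap, and knockout replicate 2 lay well below the other 2 knockout libraries, which came near the wild-type range. The log2 fold change was -0.65 ± 0.28 (95% interval -1.29 to -0.02; adjusted p = 0.556 in limma). It was -0.35 ± 0.16 without knockout replicate 2 and -0.38 ± 0.15 after GC adjustment (adjusted p = 0.698 and 0.408). P4ha1 transcripts have a GC content of 45.7%.

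P4ha3 was the least abundant of the 10 in the knockout and among the most separated. It stood at 9.42, 6.29 and 8.44 RPKM in the knockout against 18.26, 19.05 and 10.79 RPKM in the wild type. Wild-type replicate 3 came near the knockout libraries and the other 2 wild-type libraries were far above them. The mean was 49.8% lower, 8.05 ± 1.60 against 16.0 ± 4.56 RPKM (SD, n = 3 per group), a log2 fold change of -0.89 ± 0.26 (SE; 95% interval -1.49 to -0.29; adjusted p = 0.404 in limma). The estimate was -0.74 ± 0.24 without knockout replicate 2 and -0.96 ± 0.23 after GC adjustment (adjusted p = 0.461 and 0.204). P4ha2 did not separate, at 11.77, 13.65 and 13.13 RPKM against 11.59, 17.12 and 15.87 RPKM. Wild-type replicate 1 was the lowest of the 6 libraries for P4ha2, and the log2 fold change was -0.18 ± 0.20 (95% interval -0.65 to 0.28; adjusted p = 0.673 in limma). It was -0.34 without wild-type replicate 1 and -0.08 without wild-type replicate 2.

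**Figure D2:**
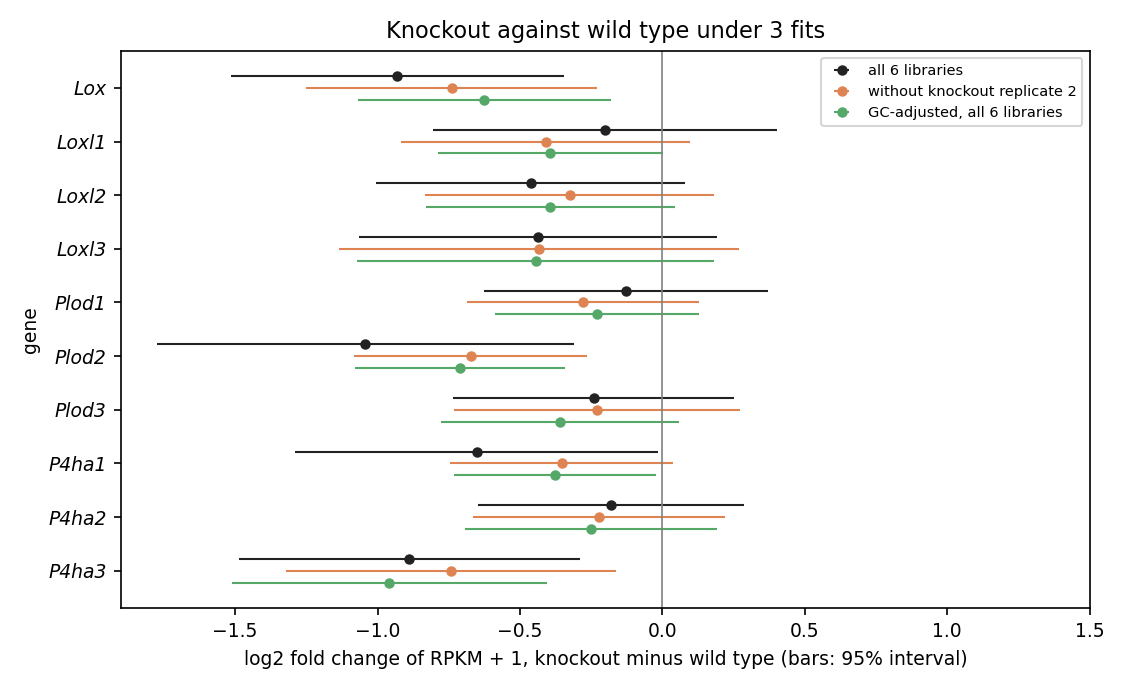
Log2 fold change of RPKM + 1, knockout minus wild type, of the 10 enzyme genes with 95% intervals from limma, over all 6 libraries (black), without knockout replicate 2 (orange) and after per-library GC adjustment (green). Lox, Plod2 and P4ha3 have intervals below 0 in all 3 fits, and Plod2 goes from -1.04 to -0.67 and -0.71.

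The enzymes did not move together within knockout replicate 2. Relative to the mean of knockout replicates 1 and 3, that library read Plod2 at 0.443 of their level, P4ha1 at 0.525 and Lox at 0.668, while it read Loxl1 at 1.54 and Plod1 at 1.38 times their level. The first 3 have the lowest transcript GC of the 10 (43.0% to 45.7%), and Loxl1 and Plod1 have 61.0% and 56.3%. After GC adjustment the same ratios were 0.774 for Plod2, 0.861 for P4ha1, 1.11 for Lox, 1.01 for Loxl1 and 1.21 for Plod1. P4ha3, with a GC content of 54.5%, was at 0.704 before and 0.697 after the adjustment. Of the 10 enzymes, 6 then had every knockout library below every wild-type library, Lox, Loxl1, Loxl2, Plod2, P4ha1 and P4ha3, where 12.5% of genes did. None was called after the adjustment, where 107 genes were, and the median of the 10 was -0.39 against 0.02 over all genes.

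**Figure D3:**
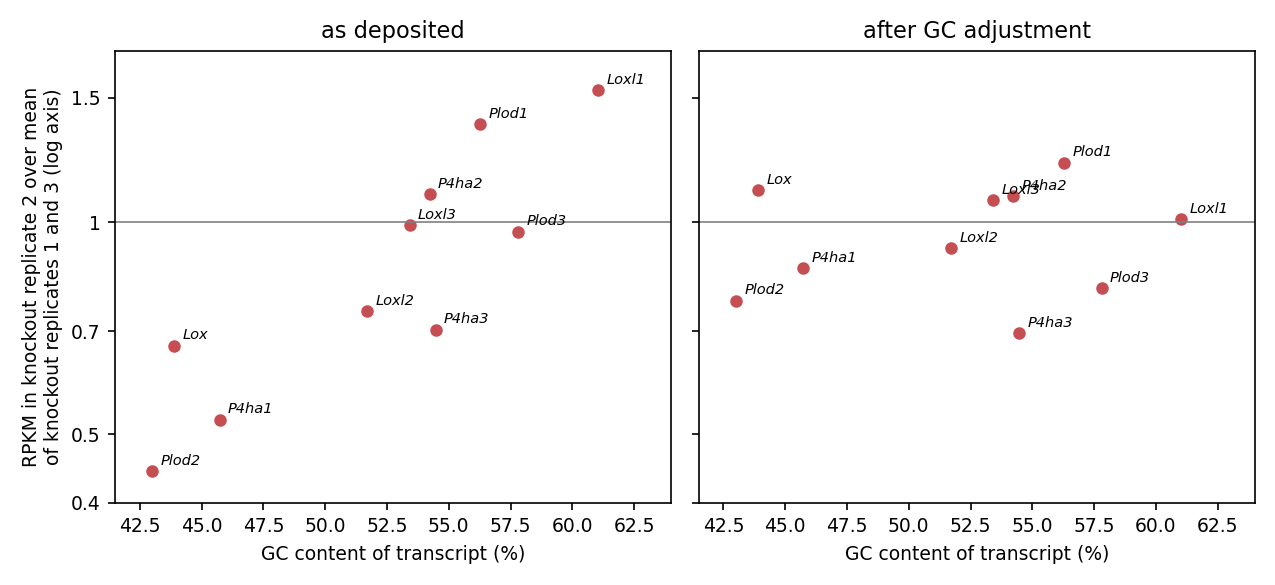
RPKM in knockout replicate 2 as a multiple of the mean of knockout replicates 1 and 3 (log axis) against transcript GC content in percent, 1 point per enzyme gene, as deposited (left) and after GC adjustment (right). On the left the points run from Plod2 at 0.443 to Loxl1 at 1.54, with P4ha3 low for its GC at 0.704. On the right they lie between 0.697 and 1.21, where the adjustment removes a GC trend by design.

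RPKM is per length, so levels can be set side by side between genes only as far as the deposited lengths hold. The deposited length was 6239 bases for P4ha2 and 6765 for Plod1, where GENCODE M21 gave 2339 and 3608 exonic bases. For P4ha1 both were 4114. The order below and the shares within families therefore depend on the length used. In the wild type the order of mean RPKM was Lox (145.6), Loxl2 (131.2), Loxl1 (126.1), Loxl3 (51.5), Plod2 (49.2), P4ha1 (48.1), Plod3 (42.0), Plod1 (37.3), P4ha3 (16.0) and P4ha2 (14.9). Neighbours in the first 3 places, in places 4 to 8 and in the last 2 differed by less than their spread over libraries. The 3 leading oxidases were above 96.3%, 96.3% and 96.6% of the genes tested by their mean over all 6 libraries (Lox, Loxl2 and Loxl1). In the knockout the means were 111.6 ± 31.3 RPKM for Loxl1, 94.8 ± 15.8 for Loxl2 and 76.3 ± 16.4 for Lox (SD, n = 3). Without knockout replicate 2 the order of the first 2 turned, with means of 103.5 RPKM for Loxl2, 94.6 for Loxl1 and 85.8 for Lox.

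The share of Lox in the summed RPKM of the 5 lysyl oxidase genes was lower in the knockout. It was 28.2%, 18.02% and 25.1% in knockout replicates 1 to 3 and 30.5%, 32.8% and 32.3% in wild-type replicates 1 to 3. After GC adjustment it was 24.8%, 27.8% and 25.7% against 29.3%, 28.9% and 29.2%, so the groups stayed apart while the difference shrank from -8.08 to -3.06 percentage points. The share of Plod2 among the lysyl hydroxylases was 36.2%, 15.1% and 27.4% in the knockout and 34.0%, 39.8% and 41.7% in the wild type. These overlapped by knockout replicate 1 and wild-type replicate 1, and after GC adjustment they did not (31.9%, 25.0% and 28.3% against 32.4%, 35.0% and 37.1%). By the deposited lengths P4ha1 had the largest share of the alpha subunit level in either genotype. It was 58.9% ± 8.11 in the knockout and 61.0% ± 0.939 in the wild type (SD, n = 3). Knockout replicate 2 was at 49.5% and the other 5 libraries between 59.9% and 64.1%. The difference in the share of P4ha1 turned from -2.10 to 4.04 percentage points after GC adjustment.

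**Figure D4:**
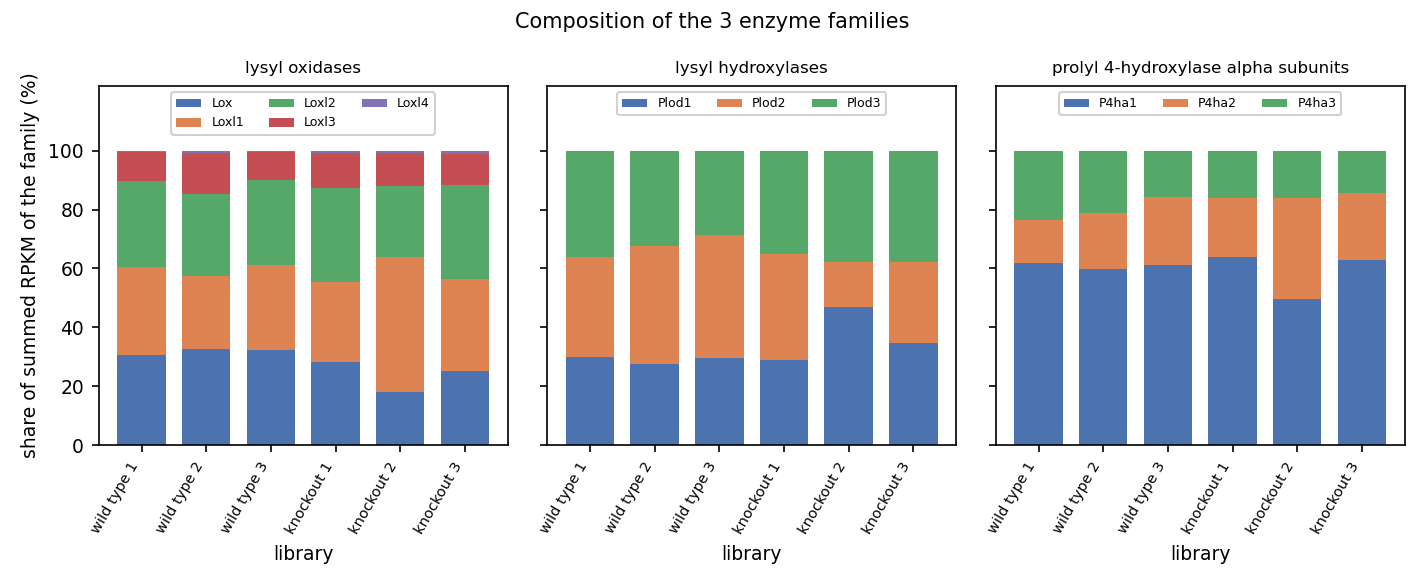
Share in percent of each gene in the summed RPKM of its family, 1 bar per library, for the lysyl oxidases, the lysyl hydroxylases and the prolyl 4-hydroxylase alpha subunits, from deposited values. Knockout replicate 2 differs most, with Loxl1 at 45.7%, Plod1 at 47.0% and P4ha2 at 34.6% of their families.

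The enzymes were also set against fibroblast markers. In bulk tissue fewer cells of a type and less RNA per cell cannot be told apart. The 15 fibroblast markers showed a median log2 change of -0.41 (-0.14 without knockout replicate 2) and 0 called members, and their summed level was 1804.3 to 2678 RPKM in the knockout and 2483.1 to 2727.6 RPKM in the wild type, with none at 0 in every library. Relative to the mean of these markers in the same library (log2 scale), 6 of the 10 enzymes were lower in the knockout and the median difference was -0.10. It was -0.25 without knockout replicate 2, -0.41 without wild-type replicate 3 and 0.09 without wild-type replicate 2, so its size and sign rested on single libraries. Lox was at 0.51, 0.60 and 0.53 above the markers in the knockout and at 1.32, 1.43 and 0.62 in the wild type, which did not overlap. Plod2 did not overlap either, at -0.81, -1.41 and -1.08 against -0.31, -0.20 and -0.71. These were 2 of the 10 enzymes, where 2.68% of genes lay below in this way and 18.1% above. After GC adjustment Plod2 alone stayed apart (2.04% of genes lay below and 22% above), and Lox overlapped at 0.37, 1.02 and 0.58 against 1.27, 1.27 and 0.49. With Pdgfra alone as the reference, which stood at 25.77, 7.17 and 23.72 RPKM in the knockout and 33.05, 25.64 and 32.08 RPKM in the wild type, the median difference turned to 0.37.

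The main substrates were taken as the mean of Col1a1, Col1a2 and Col3a1 in the same library. Relative to them the median difference of the 10 enzymes was -0.02, with 6 below 0. Plod2 and P4ha3 had differences of -0.61 and -0.46, and their groups overlapped. Lox was at -3.37, -3.81 and -3.70 in the knockout and -3.22, -2.92 and -3.23 in the wild type, with no overlap, as the only enzyme below its wild-type range, where 1.27% of genes were. Plod1 was the only one above it, at -5.01, -4.24 and -4.98 against -5.03, -5.07 and -5.04, where 33.9% of genes were, a larger share than among the 10. After GC adjustment Lox overlapped, with a difference of -0.14 in place of -0.50, and none of the 10 lay below (1.07% of genes did). The differences of Plod2 and P4ha3 were then -0.22 and -0.47. Plod1 stayed above, where 55.6% of genes did.

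Other genes of collagen maturation had mostly values below 0. Of 13 hydroxylation partners outside the 10, 0 rose, 0 fell and 12 had values below 0, where 59.3% of genes did, with a median of -0.16 (2 with an unadjusted limma p under 0.05). Among them P4hb, the shared beta subunit of prolyl 4-hydroxylase, was at -0.15 (adjusted p = 0.797 in limma) and Serpinh1, the collagen chaperone, at -0.19 (adjusted p = 0.772). In 3 of the 13 all knockout libraries lay below the wild type, where 11.8% of genes did, among them Fkbp14 and Leprel2, a prolyl isomerase and a prolyl 3-hydroxylase, at -0.55 and -0.48 (adjusted p = 0.556 each). These 4 were chosen after their values were seen.

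Genes of procollagen processing and oxidase activation had a larger median, -0.47 over 13 tested, with 12 below 0 and none called (5 with an unadjusted limma p under 0.05). Fmod, a proteoglycan that binds collagen and modulates its crosslinking by lysyl oxidase, stood at 6.24, 9.67 and 7.8 RPKM in the knockout against 17.27, 23.57 and 16.84 RPKM in the wild type. Its groups were far apart, with a log2 fold change of -1.19 ± 0.22 (adjusted p = 0.0884 in limma). Without knockout replicate 2 it fell and passed the test (adjusted p = 0.0334), the only gene of this list to do so. Postn, the matricellular protein that brings Bmp1 to the Lox proenzyme, stood at 349.85, 173.65 and 293.4 RPKM against 411.58, 858.24 and 711.18 RPKM (log2 fold change -1.27 ± 0.39, adjusted p = 0.439 in limma). Bmp1, the proteinase that activates Lox, showed a log2 fold change of -0.42 and Fbln5, the elastic fibre partner of Loxl1, one of -0.59 (adjusted p = 0.556 and 0.486). In both, all knockout libraries were below the wild type, and both were chosen after their values were seen. Of the other crosslinking enzymes Tgm2 and F13a1, transglutaminases that join proteins through glutamine and lysine, were at 0.08 and -0.03 (adjusted p = 0.886 and 0.976), and Pxdn and Tgm1 at -0.38 and -0.10 (adjusted p = 0.556 and 0.816). The median of these 5 was -0.08. Without knockout replicate 2 Tgm2 was at -0.11 and F13a1 at 0.59, so both signs rested on that library. Tgm2 and F13a1 were chosen after their values were seen.

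Of 14 substrates, 0 were called, 12 had values below 0 and the median was -0.36 (-0.22 without knockout replicate 2). Eln, the gene of elastin, stood at 74.37, 69.43 and 70.92 RPKM in the knockout against 258.91, 133.38 and 146.47 RPKM in the wild type. The knockout libraries were almost equal and all lay below the wild type, the log2 fold change being -1.25 ± 0.28 (adjusted p = 0.17 in limma). Fbn1, the microfibril scaffold of elastic fibres, was at -0.65 ± 0.31 (adjusted p = 0.556). The basement membrane genes Col4a1 and Col4a2, substrates of Loxl2 and Plod3, were the 2 above 0, at 0.11 and 0.18 (adjusted p = 0.841 and 0.738), and were chosen after their values were seen.

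Several of the 10, among them Plod2, P4ha1, P4ha2, Lox and Loxl2, are known targets of hypoxia-inducible factors. The 20 hypoxia-inducible genes tested showed a median log2 change of 0.15, 12 of them above 0 and 8 below, with none called (2 with an unadjusted limma p under 0.05). Egln3, an oxygen-sensing prolyl hydroxylase, stood at 27.37, 70.34 and 35.28 RPKM in the knockout against 12.38, 21.72 and 24.11 RPKM in the wild type (log2 fold change 1.09 ± 0.38, adjusted p = 0.519 in limma). Ankrd37 showed a log2 fold change of 0.49 ± 0.19 (adjusted p = 0.556). Both had every knockout library above the wild type, and Egln3 was highest in knockout replicate 2, the library with the highest cardiomyocyte markers. Genes of transforming growth factor beta signalling, which induces Lox and other matrix genes in fibroblasts, had a median of -0.40 over 14 tested. Of these 12 were below 0, 2 above and 0 called, and the median was -0.18 without knockout replicate 2. The 2 above were the ligand gene Tgfb1 at 0.60 and Smad7 at 0.10 (adjusted p = 0.556 and 0.792 in limma). Both were chosen after their values were seen. Tgfb3 was at 39.9 ± 8.12 against 71.3 ± 11.4 RPKM (SD, n = 3 in each; a log2 change of -0.83 ± 0.23, adjusted p = 0.344 in limma) and Ltbp1, which holds the latent ligand in the matrix, at -0.55 ± 0.22 (adjusted p = 0.556). Of genes for the supply or use of 2-oxoglutarate, copper and ascorbate, 11 were tested and 0 called. Their median was -0.09 and turned to 0.14 without knockout replicate 2. Tet2, another 2-oxoglutarate dioxygenase, was at -0.96 ± 0.35 and Idh2, a mitochondrial source of 2-oxoglutarate, at 0.93 ± 0.41 (adjusted p = 0.556 each).

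No marker of another cell type passed the test, and the levels of the marker lists are given beside the enzymes. The 10 myofibroblast markers showed a median log2 change of -0.62, all below 0 and 0 called (-0.40 without knockout replicate 2), with a summed level of 997.9 to 1282.3 RPKM in the knockout and 1658.9 to 2381.9 RPKM in the wild type. Cthrc1, a secreted protein of activated fibroblasts, showed a log2 fold change of -0.86 ± 0.24 (adjusted p = 0.368 in limma). Of the 15 fibroblast markers 11 were below 0 and 4 above. The 2 with the smallest p, Pdgfrl and Mfap4, were at -0.93 ± 0.24 and -0.80 ± 0.27 (adjusted p = 0.306 and 0.494 in limma). Cardiomyocyte markers, such as Ckm at 1.69 ± 0.53 and Myh7 at 1.44 ± 0.60 (adjusted p = 0.454 and 0.556), had a median of 0.60 with 14 of 14 above 0. It was 0.18 without wild-type replicate 1 and 0.97 without wild-type replicate 3. Wild-type replicate 3, the library nearest to the knockout for the enzymes, had the highest cardiomyocyte markers of its group, and without it the median of the 10 enzymes was -0.65 (-0.28 without wild-type replicate 2). Macrophage markers had a median of -0.38 (13 of 15 below 0), which was -0.07 (8 of 15 below 0) without knockout replicate 2 and -0.12 without wild-type replicate 1, with Fcgr1 and Mertk at -0.98 ± 0.38 and -0.89 ± 0.38 (adjusted p = 0.556 each), and their summed level was 2249 to 5856.7 RPKM in the knockout and 3435.3 to 6275.7 RPKM in the wild type. No marker of these 4 lists was at 0 in every library. The part of these cell types in the differences of the enzymes was not tested.

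**Figure D5:**
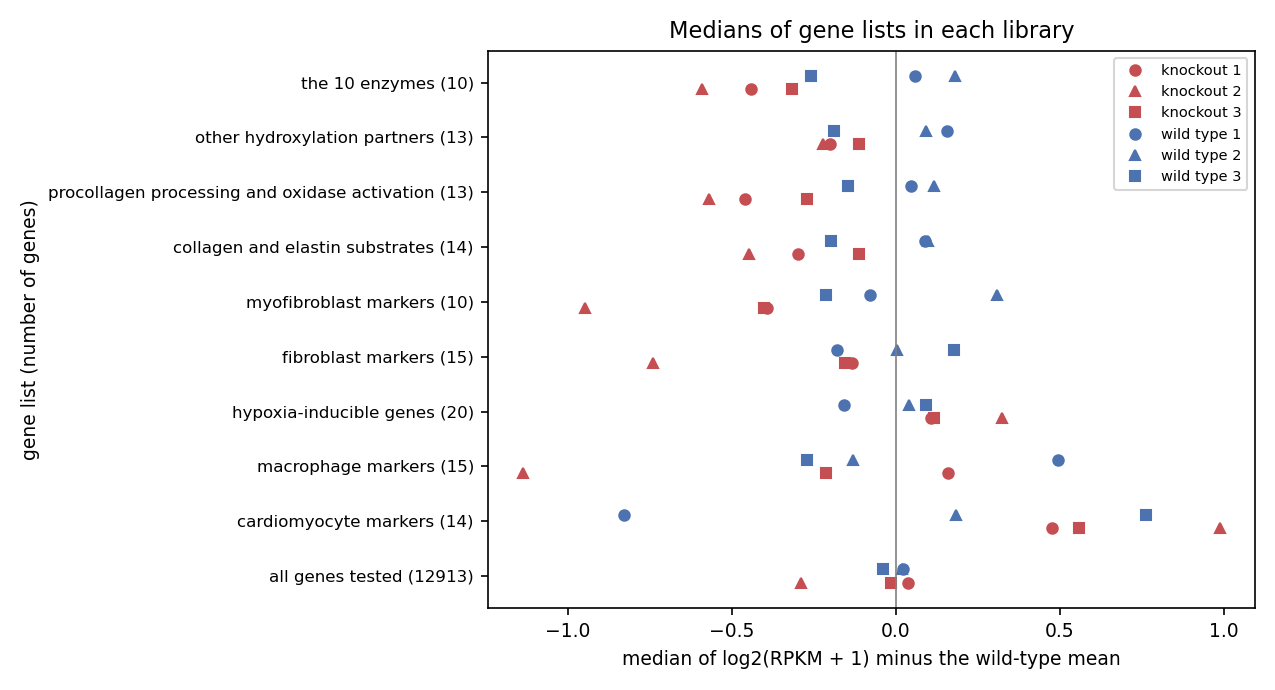
Median over each gene list of log2(RPKM + 1) minus the wild-type mean, 1 point per library, with the number of genes in parentheses and the markers as in the plot of RPKM by gene. For the 10 enzymes the knockout libraries lie at -0.44, -0.59 and -0.32 and the wild-type libraries at 0.06, 0.18 and -0.26. Cardiomyocyte markers lie at 0.48, 0.99 and 0.56 in the knockout and at -0.83, 0.18 and 0.76 in the wild type. For these markers the groups overlap.

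Other lists had 0 called members and wider or smaller values. Mesothelial markers had a median of -1.02 over 10 tested (-0.61 without wild-type replicate 1 and -1.57 without wild-type replicate 2), Msln and Muc16 being at -1.35 ± 0.50 and -1.41 ± 0.52 (adjusted p = 0.556 each in limma). Endothelial markers had a median of -0.13 (0.05 without knockout replicate 2), with 7 below 0 and 3 above. Their 2 genes with the smallest p, Tek and Emcn, were at -0.62 ± 0.38 and -0.49 ± 0.38. Smooth muscle and pericyte markers had a median of -0.08 (0.03 without wild-type replicate 2), with 7 below 0 and 3 above. Here Myh11 and Rgs5 had the smallest p, at -0.50 ± 0.28 and -0.57 ± 0.45. The 4 neutrophil markers tested had a median of -0.34 (-0.15 without knockout replicate 2 and -0.01 without wild-type replicate 1). Of these 3 were below 0 and 1 above, with Csf3r at -0.63 ± 0.34 and Retnlg at -0.96 ± 0.52.

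By Pearson r of log2(RPKM + 1) over the 6 libraries, given as a description of likeness, the genes nearest to Lox among 5794 with a mean of at least 10 RPKM were Cnn3 (0.995), Srp68 (0.993) and Col12a1 (0.992). Nearest to Loxl1 were Plod1 (0.992), Mmp23 (0.991) and Pacs2 (0.978), the latter 2 outside the set. Plod2 was nearest to Ccdc25 (0.999), Plscr1 (0.998) and Tbl1xr1 (0.998), and P4ha1 to 4931406P16Rik, Hspa5 (0.998 each) and Dnajc3 (0.997). These correlations share the libraries, the genotype contrast and the GC slope of knockout replicate 2.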

How the data were processed

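RNA-seq libraries of infarct tissue were compared between genotypes, 3 libraries of each. The authors deposited RPKM per gene, rounded to 2 decimals, with gene lengths. Their tools included edgeR 3.8.6, HTSeq 0.6.0, STAR 2.3.0, SAMtools 0.1.18.0 and Picard 1.100, on genome build NCBIM37 (mm9), per the submitters' processing notes. Annotation and use of strand were not given in the sources used here. Columns were matched by title, and 5 rows with shifted names were repaired.

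The 12913 genes whose mean reached 1 RPKM entered a two-sided limma fit (version 3.58.1, R 4.3.3) of log2(RPKM + 1), with moderated variances following a trend in mean level and Benjamini-Hochberg adjustment. This scale understates changes of low genes. Reads were not recovered as whole numbers for all genes (rounding left an error under 0.5 reads for 19.3% to 84.8% of genes), so no count test was run. Tested on simulated data for this comparison (12913 genes), the fit found 82 of 100 genes with a 4-fold change, 29 of 100 with a 2-fold change, and made 2 false calls. An exact permutation test of 3 against 3 cannot go below p = 0.1.

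Transcript GC (longest GENCODE M21 transcript, GRCm38) was found for 98.4% of tested genes, and the adjustment subtracted each library's median deviation from the gene means in 20 GC bins, which also levels the libraries overall. Genes without a value were left as they were. Exon overlaps came from the same annotation. Named genes were the 10 enzymes, Loxl4, Irf3, the 2 genes with the smallest p in each list and the 3 nearest profiles of Lox, Loxl1, Plod2 and P4ha1. Outside this rule, P4hb, Serpinh1, Fkbp14, Leprel2, Bmp1, Fbln5, Tgm2, F13a1, Col4a1, Col4a2, Tgfb1 and Smad7 were named after their values were seen, and Pdgfra as the alternative reference. The members and lists were chosen with earlier results of these data known. Alternatives covered the pseudocount, the filter, scaling, the replicate number as a block, the variance trend, each library left out and the reference genes, and, chosen after seeing the data, the GC adjustment and median-of-ratios scaling without knockout replicate 2.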

Additional observations from a re-analysis of the deposited data

How the results depend on the processing

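No enzyme was called under any of 14 alternatives to the fit, and of 140 values 139 kept their sign. The exception was Plod1, which ranged from -0.28 to 0.0311 with 1 library left out, above 0 without knockout replicate 1 (0.0311). The other filters, the replicate block and the fit without a variance trend cannot change a fold change. Their signs were therefore fixed in advance and are no check. Over all alternatives the adjusted p of limma ranged from 0.0712 to 0.877 for Plod2, from 0.179 to 0.877 for Lox and from 0.136 to 0.877 for P4ha3. The number of genes called was 34 with a minimum mean of 5 RPKM, 107 after GC adjustment, 250 with the replicate number as a block (replicate block) and 21 to 97 with 1 library left out (26 without knockout replicate 3, and 29, 30 and 21 without wild-type replicates 1, 2 and 3), against 65. Deviations of samples of the same number had correlations of 0.13, -0.10 and -0.10, and those of other pairs ran from -0.21 to 0.19. With 3 libraries per group these values cannot tell whether samples of the same number share a batch. The block called 0 of the 10 enzymes. With 1 library left out the median of the 10 ranged from -0.65 (without wild-type replicate 3) to -0.28 and the count of enzymes without overlap from 4 to 7 (7 without wild-type replicate 3, where 3 against 2 libraries separate more easily). The share of all genes without overlap was not taken with a library left out, so these counts cannot be judged against a background. Relative to fibrillar collagens the median difference ranged from -0.13 without wild-type replicate 3 to 0.12 without wild-type replicate 2, and was 0.0924 after GC adjustment. Relative to fibroblast markers it ranged from -0.41 without wild-type replicate 3 to 0.09 without wild-type replicate 2, and was 0.37 with Pdgfra alone. The difference in the share of P4ha1 was 4.04 percentage points after GC adjustment. Where not stated above, the cause was not tested. Each enzyme value rests on at least 346 reads.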
